A study of Mus musculus with 8 samples.

Results

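Among the open chromatin regions that NIH3T3 cells had in every ATAC-seq library, 692 stood higher in the order of peak strength on G2 than on G128. They were chosen from 27302 autosomal regions, out of 45915 regions in all, by a rule on the peak lists themselves. Peaks of the 4 lists were joined where they shared at least 1 bp, and regions on autosomes with a peak in all 4 lists were kept. Each region was then ranked within each library by its largest −log10 p-value, from percentile 0 for the weakest to 100 for the strongest. A region was included when its lower percentile on G2 exceeded its higher percentile on G128 by at least 10 points, and this excess is called the margin. The 692 regions were 2.53% of those ranked. The opposite rule, with G128 above G2, chose 691 regions, which was also 2.53%.

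Both groups were NIH3T3 cells, an immortalised mouse embryonic fibroblast line kept in medium with newborn calf serum, with no genetic change named in the labels. They differed in the surface, G128 or G2, on which the cells had been for 24 h, and each group had 2 libraries. The series concerns hydrogels of polyvinyl alcohol and gelatin and how they affect adhesion, and the labels do not say what G128 and G2 stand for. The 4 RNA libraries were not analysed here.

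ATAC-seq uses the Tn5 transposase, which inserts adapters where DNA is not covered by nucleosomes, so that promoters, enhancers and insulators appear as peaks. As background, fibroblasts sense a surface through integrins and focal adhesions, and the resulting tension in the actin cytoskeleton reaches the nucleus in part through transcriptional regulators such as YAP, TAZ and the MRTF partners of SRF. In most cell types the strongest accessible sites, many of them promoters, vary little between conditions, and sites of intermediate strength, many of them distal enhancers, vary more. Which of these classes the present regions belong to was not examined. No sequence or gene annotation of the files' build, mm9, was used here, so the regions are given by position alone, and neither fibroblast markers nor motifs were read at them.

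Because the rule used the same values from all 4 libraries, the differences between G2 and G128 at these regions describe the choice, and no test was made of them. An exact permutation test of 2 against 2 libraries could in any case give no p below 0.333. The labels do not say that the replicates came from separate cultures.

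On G128 these regions were among the weaker shared regions, and on G2 they were nearer the middle. Their median percentile in replicates 1 and 2 was 16.9 and 18.0 on G128, against 40.6 and 39.3 on G2. The highest percentile reached by any of them was 68.9 and 67.5 on G128 and 79.1 and 80.5 on G2. The median margin was 13.4 points, with quartiles at 11.4 and 17.2 points and a maximum of 35.4. Of the 692 regions, 433 had a margin of 10 to 15 points, 156 of 15 to 20, 92 of 20 to 30, and 11 of 30 or more. In the opposite direction 10 regions had a margin of 30 points or more, and the largest was 41.4.

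**Figure D1:**
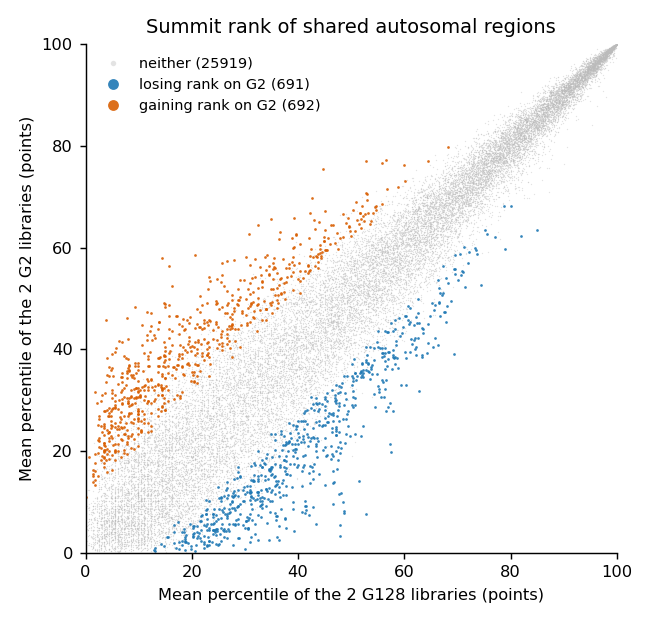
Each point is 1 of the 27302 shared autosomal regions, with its mean percentile over the 2 G128 libraries on the x axis and over the 2 G2 libraries on the y axis, both in points. The 692 gaining regions (orange) and the 691 losing regions (blue) lie along both sides of the diagonal at low and middle ranks, and neither reaches the upper right corner, where the points narrow to the diagonal.

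Peak height is given as the summit over the background, the number of overlapping sequenced intervals at the highest point of a region divided by the mean background of that library. Both numbers were recovered from the steps of the deposited p-values. The background mean was 1.05 intervals (replicate 1) and 1.41 (replicate 2) on G128, and 1.10 and 1.37 on G2. The weakest listed summit was 20, 26, 20 and 25 intervals in the same order. The lists held 32540, 37695, 42358 and 41585 peaks.

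The gaining regions stood near the level of weak peaks on G128 and somewhat under the typical shared region on G2. Their median summit on G128 was 28.5 times the background in replicate 1 and 32.6 times in replicate 2. On G2 it was 55.5 and 54.8 times. Over all shared autosomal regions these medians were 50.3 and 58.1 on G128 and 67.3 and 67.9 on G2, so shared summits in general stood higher on G2. In single regions the ratio of G2 to G128 ranged from 1.46 to 2.86, with a median of 1.76, and 100 of the 692 reached a ratio of 2 or more. The median over all shared autosomal regions was 1.27, with an upper quartile of 1.4. The rule favours high ratios, so these counts describe the choice.

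Ranks do not carry this general difference, and removing it left a smaller change. With every library centred on its own shared-region median, the difference between G2 and G128 had a median of 0.49 on the log2 scale in the gaining regions, a ratio of 1.40. It ranged from 0.22 to 1.19, and 7 regions kept a ratio of 2 or more. Taken per replicate number, the median was 0.50 for number 1 and 0.49 for number 2. Without that centring it was 0.81, against 0.34 over all shared autosomal regions. Before scaling, both G2 summits exceeded both G128 summits in all 692 regions, against 67.6% of all shared autosomal regions. The rule and the general difference favour this count, and nothing is read from it.

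**Figure D2:**
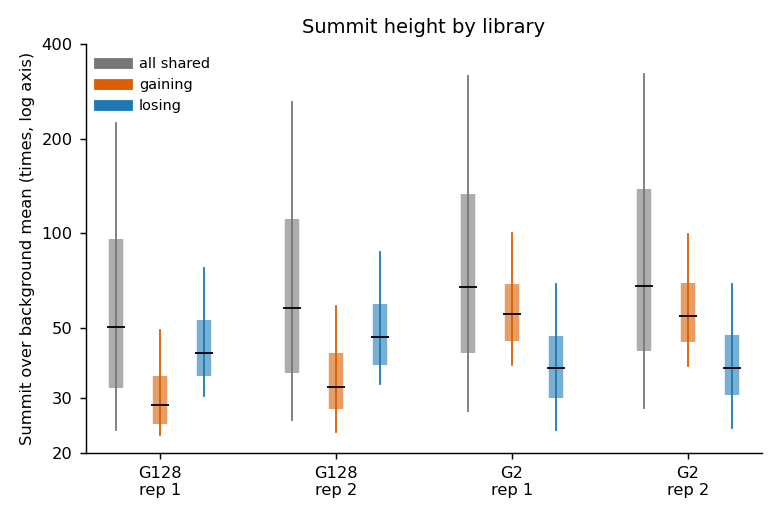
Summit over the background mean (log axis) in each library, for all shared autosomal regions (grey), gaining regions (orange) and losing regions (blue). The black line is the median, the wide bar spans the quartiles and the thin line the 5th to 95th percentile. The gaining regions have medians of 28.5 and 32.6 on G128 and of 55.5 and 54.8 on G2.

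The counts behind these summits were small. On G128 the median gaining region had 30 intervals at its summit in replicate 1 and 46 in replicate 2. On G2 it had 61 and 75 intervals. The exact Poisson 95% intervals of these counts were 20.2 to 42.8, 33.7 to 61.4, 46.7 to 78.4 and 59 to 94. They cover counting error only, and overlapping intervals need not be independent molecules. At the gaining regions 1 interval was worth a median of 2.06 percentile points in replicate 1 of G128 and 1.14 in replicate 2. On G2 it was worth 0.809 and 0.656 points.

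Many gaining regions were close to the limit of detection on G128. In G128 replicate 1, 360 of the 692 (52%) had a summit of at most 1.5 times the weakest one listed, against 18.0% of all shared autosomal regions. In G128 replicate 2 this held for 187 (27.0%), against 9.50%. It held for 177 regions in both G128 libraries and for none in either G2 library. On G2 such summits made up 5.19% and 4.85% of all shared autosomal regions. The rule asks for a G2 percentile of at least 10, so none of these could be chosen. It also favours low ranks on G128, so the G128 shares describe the choice. A region that fell below the caller's limit on G128 was not shared and could not be chosen, so the list holds no region that was undetected on G128.

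Gaining regions that stood higher on G128 were wider and had slightly larger ratios and smaller margins. In 151 regions the higher G128 percentile was below 10, and in 319 it was 10 to 30. It was 30 to 50 in 176 regions and 50 or more in 46. From the lowest to the highest of these 4 groups, the median width was 390, 452, 630 and 792 bp. The median ratio of G2 to G128 was 1.71, 1.74, 1.79 and 1.85. The median margin was 14.1, 13.8, 13.1 and 11.6 points in the same order. The groups were cut on a value that the rule used, so these differences describe the choice. From the middle ranks upward 10 points also stand for more height, as given below. Other shared regions also widened with mean percentile, from a median of 251 bp in the lowest 10 points to 1191 bp in the highest. A total of 114 regions went from below percentile 50 in both G128 libraries to 50 or above in both G2 libraries. The rule favours such crossings, and no count over all shared autosomal regions is given beside it.

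No gaining region came from the top of the ranking. All shared autosomal regions were divided into 10 bands of 10 points of their mean percentile over the 4 libraries, numbered from the weakest, which hold 1977 to 3463 regions each. Gaining regions made up 4.97%, 6.33%, 4.99% and 3.72% of bands 2 to 5. They made up 0.607% of band 1, 2.37% of band 6, 0.639% of band 7 and 0.0738% of band 8, and there was none among the 5407 regions of bands 9 and 10. The losing regions had nearly the same profile, with 4.94%, 5.99%, 5.13% and 3.65% in bands 2 to 5 and none in the last 2. Part of this profile follows from the rule, since a margin of 10 points needs that much room at either end of the ranking.

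The same 10 points stood for different heights along the ranking. Averaged over the 4 libraries, 10 points spanned a 1.55-fold difference in summit in band 1, the weakest regions. They spanned 1.18 to 1.19-fold in bands 2 to 4, and from there the span widened to 1.5-fold in band 9. The spread of the measured differences between the groups went the other way, with an SD over regions of the scaled log2 difference of 0.218 in band 1, 0.298 in band 3 and 0.151 in band 9. A margin in points is therefore not a margin in height.

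**Figure D3:**
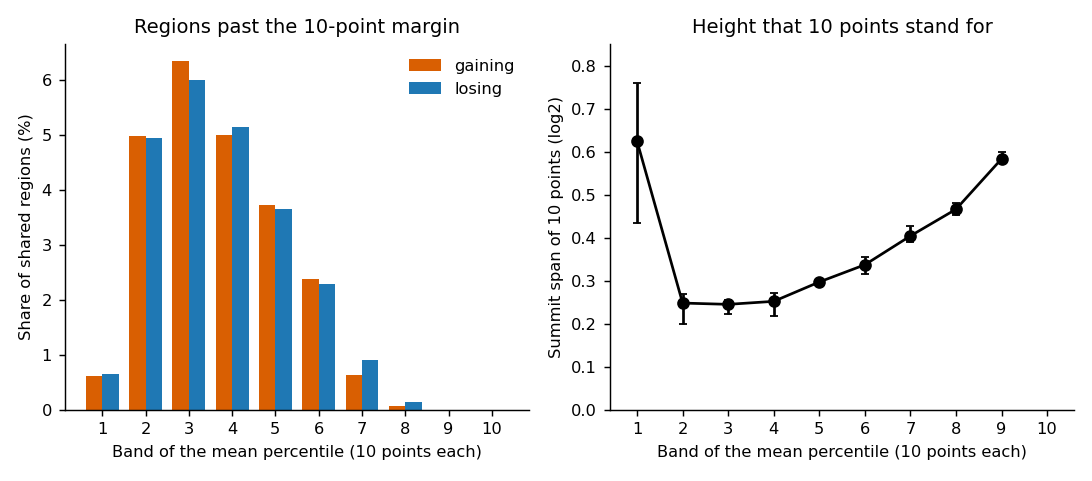
Left, share (%) of the shared autosomal regions in each band of the mean percentile that gained (orange) or lost (blue) at least 10 points. Right, log2 difference in summit spanned by 10 points in each band, as the mean of the 4 libraries with the lowest and highest library as bars. The last band, which runs to the highest peak, is left out. The shares peak in band 3 at 6.33% and 5.99%, where 10 points span the smallest mean height.

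The rule was also applied to height in place of rank. After centring, the lower G2 summit exceeded the higher G128 summit by at least 0.5 on the log2 scale in 123 regions (0.451% of those ranked). In 203 regions (0.744%) G128 exceeded G2 by as much. In bands 2 to 8 this margin is larger than the height that 10 points span in any library, at most 0.48. Bands 1 and 2 together had 9 gains and 84 losses, and there the median scaled difference of all regions was −0.20 and −0.08. In bands 3 to 8 there were 114 gains and 117 losses. All 123 were among the 692 gaining regions, of which they were 17.8%. Both rules read the same values, and this overlap follows largely from the spans just given. Their median mean percentile was 36.0, against 23.8 for the 203. Among the 5407 regions of bands 9 and 10, none passed in favour of G2, where the largest excess was 0.47, and 2 passed in favour of G128, with a largest excess of 0.57. The height margin of 0.5 was set with these values in view.

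The largest margin was at chr14:76928316-76929017, a region of 702 bp. On G128 its summits stood at 24.7 times the background in replicate 1 and 27.6 times in replicate 2, and on G2 at 64.6 and 60.6 times. Its percentile went from 6.92 and 8.84 to 47.9 and 44.2. The region at chr10:77767697-77768254 followed, with 30.4 and 26.9 times on G128 and 83.7 and 79.6 times on G2. Its ratio of group means, 2.85, was the highest of the 20 regions with the largest margins. Then came chr19:47453471-47454144, whose summits were 31.3 and 32.6 times on G128 and 83.7 and 81.8 times on G2. In these 3 regions the uncentred summits of a group were close to each other and the groups far apart. By percentile the G128 libraries were less close at the second region, at 21.2 in replicate 1 and 7.59 in replicate 2.

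The fourth region, chr1:192638354-192638993, was less even on G2. Its summits were 22.8 and 25.5 times the background on G128, and 71.9 times in G2 replicate 1 but 54.1 times in G2 replicate 2. Replicates were closer at chr5:64328018-64328445, with 23.7 and 26.2 times on G128 and 54.6 and 54.8 times on G2. At chr17:71606191-71606762 they were 22.8, 26.9, 53.7 and 54.8 times in the order of the libraries. This last region was the only one of the 20 whose highest summits lay more than 200 bp apart between libraries, by 265 bp, and the only one with more than 1 peak in a list.

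Several of the others were similar in height and gain, starting at 22.8 to 23.7 times the background in G128 replicate 1. At chr12:103045526-103046139 the 4 summits were 23.7, 24.1, 55.5 and 51.1 times in the order G128 replicate 1, its replicate 2, then the same for G2. At chr11:60933256-60933954 they were 22.8, 28.3, 57.3 and 57.0 times. The narrowest of the 20 was chr5:145400572-145400893, of 322 bp, with 23.7, 30.5, 60.9 and 70.9 times. Before centring, replicate 2 had the higher G128 summit in each of these, as it did in the median of all shared autosomal regions. By percentile it was the lower G128 library at chr12:103045526-103046139, at 3.4 against 4.56. The G2 libraries differed in either direction.

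On chromosome 2 the region chr2:91787665-91788289 had 27.5, 27.6, 66.4 and 62.1 times the background in the same order. Also on this chromosome, chr2:26273417-26274082 had 27.5, 28.3, 60.0 and 61.4 times. At chr8:72653145-72653858, the widest of the 20 with 714 bp, the summits were 28.5, 29.8, 68.2 and 65.0 times. Before centring, the G128 summits were close to each other in each of these 3 regions. They were further apart at chr11:100150236-100150750, with 26.6, 32.6, 64.6 and 66.5 times. The median shared summit was itself higher in G128 replicate 2, at 58.1 against 50.3 times. In percentiles, G128 replicates 1 and 2 stood at 12 and 18 in this region, and at 14.5 and 8.84 at chr2:91787665-91788289.

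At 3 more regions replicate 1 was the lower G128 library, by percentile as well as by summit. At chr1:137556015-137556678 the summits were 23.7 and 29.0 times the background on G128 and 55.5 and 59.9 times on G2. At chr12:113921382-113921935 they were 22.8 and 29.0 times on G128 and 55.5 and 58.5 times on G2. The widest gap within G128 among the 20 was at chr4:99645257-99645891, with 23.7 and 37.6 times on G128 and 79.1 and 78.2 times on G2. The groups did not overlap at any of them, which the rule requires.

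The last 4 of the 20 had margins of 28.5 points. At chr4:129752218-129752768 the summits were 27.5, 29.8, 60.9 and 59.2 times the background in library order. At chr7:103944618-103945250, the lowest ratio of the 20 at 2.05, they were 25.6, 26.2, 52.8 and 53.3 times. At chr4:107301555-107302118 they were 23.7, 25.5, 49.1 and 54.1 times. The remaining region, chr19:47385527-47386147, had 31.3, 35.4, 70.0 and 79.6 times and lay 67.3 kb from the third region of the list. The 20 regions lay on 12 chromosomes, and their widths had a median of 623 bp.

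**Figure D4:**
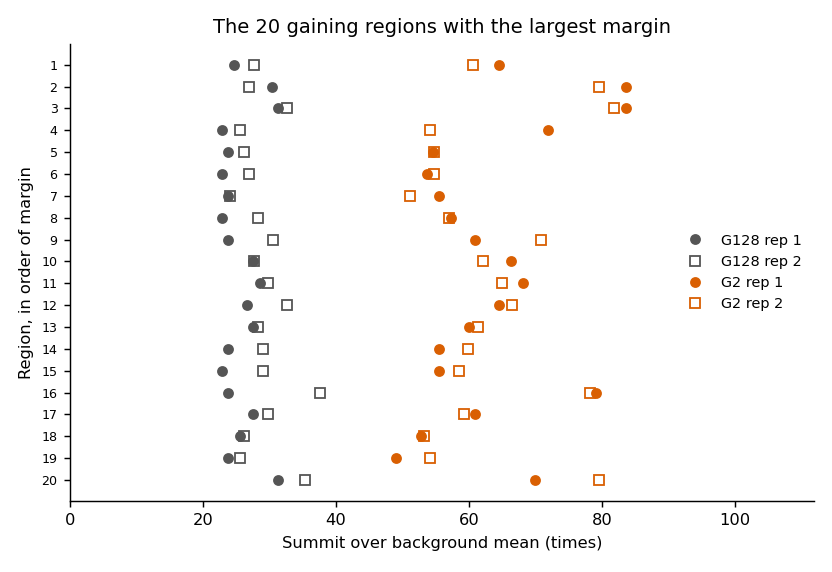
Summit over the background mean in each library for the 20 gaining regions with the largest margin, in order of margin from the top. Filled circles are replicates 1 and open squares replicates 2, grey for G128 and orange for G2. All G128 values lie between 22.8 and 37.6 and all G2 values between 49.1 and 83.7.

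The gaining regions with the highest mean percentile were wider and had moderate margins. At chr10:13684273-13685954, 1682 bp wide, the summits were 79.7 and 88.6 times the background on G128 and 153 and 167 times on G2, a margin of 10.2 points. At chr6:91662582-91663408 they were 71.1 and 80.8 times on G128 and 149 and 140 times on G2. At chr5:125614766-125615693 they were 66.4 and 68.7 times on G128 and 138 and 143 times on G2. These 3 ratios, 1.90, 1.91 and 2.08, were above the median of 1.76, and their margins of 10.2, 10.7 and 13.9 points were small or ordinary. At these ranks 10 points stand for more height than at the ranks of most gaining regions.

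The other two of the 5 strongest had a larger and a smaller margin. At chr6:85805964-85806769 the summits were 58.8 and 65.9 times the background on G128 and 146 and 147 times on G2, with a margin of 19.6 points. At chr8:114240168-114241400 they were 60.7 and 75.8 times on G128 and 130 and 124 times on G2, with a margin of 10.4 points.

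Margins ran on across the threshold of 10 points without a gap. The 5 regions just inside had margins of 10.001 to 10.036 points, and the 5 just outside of 9.968 to 9.998 points. Just inside, chr3:28422024-28422434 had summits of 29.4 and 31.2 times the background on G128 and 48.2 and 45.3 times on G2. Just outside, chr15:80927712-80928206 had 27.5 and 41.1 times on G128 and 57.3 and 62.1 times on G2.

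The rank change in 1 pair of replicates was read at regions chosen by the change in the other pair. The pair being read was not independent of the choice, since each region ranked needed a peak in all 4 lists. The regions chosen first are a wider set than the 692, with a gain of at least 10 points between the 2 libraries with replicate number 1. There were 3572 of them, 13.1% of the regions ranked, with a median gain of 15.4 points. In the pair of replicates 2, their median gain was 3.97 points and 2330 (65.2%) had a gain above 0, against 48.7% of all regions ranked. A gain of 10 points or more recurred in 1026 (28.7%, Wilson 95% interval 27.3 to 30.2%). By their rule all 692 gaining regions are among these 1026. The same gain was seen in 11.5% of all regions ranked, and in 18.1% when all regions were weighted to the bands of the chosen ones. These bands rest on the mean of all 4 libraries, the pair being read included. A loss of 10 points or more was seen in 305 of the chosen regions (8.54%).

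The reverse choice reads the same 1026 regions from the other side and is no separate result. In the pair of replicates 2, 3134 regions gained at least 10 points, with a median of 14.4. In the pair of replicates 1 their median gain was 4.45 points. There, 1026 of them (32.7%, 31.1 to 34.4%) gained at least 10 points, against 13.1% of all regions ranked and 20.6% at the same bands. A loss of 10 points or more was seen in 334 (10.7%). Under either choice most of the chosen regions did not reach 10 points again. Regions are not replicates, and the Wilson intervals cover counting error only.

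The losses chosen in the same way recurred about as often under the first choice and somewhat more often under the second. Of 3652 regions that lost at least 10 points in the replicates 1, 29.8% (28.4 to 31.3%) did so in the replicates 2. The share of all regions ranked was 11%. Of 3010 chosen in the replicates 2, 36.2% (34.5 to 37.9%) did so in the replicates 1, against 13.4% of all regions ranked.

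**Figure D5:**
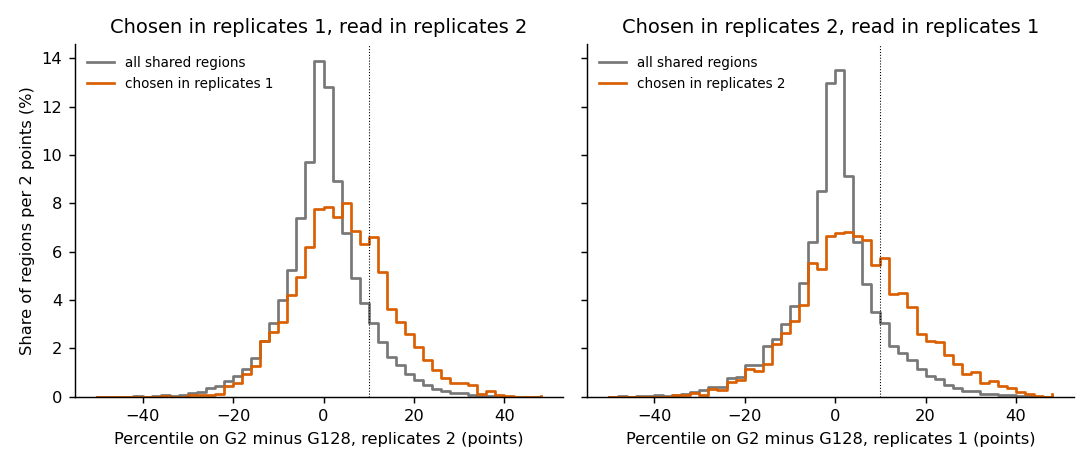
Percentile on G2 minus percentile on G128 (points) in the pair of replicates whose difference was not used to choose, as the share (%) of regions in steps of 2 points. Orange, regions that gained at least 10 points in the other pair (3572 on the left, 3134 on the right); grey, all 27302 shared autosomal regions. The dotted line is at 10 points. Values beyond 50 points are drawn in the outermost steps. The orange curves are shifted to the right of the grey ones, with medians of 3.97 and 4.45 points, and most of their area lies left of the dotted line.

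Ranked by p, the gaining regions were narrower than shared regions as a whole, and in bands 2 to 5 slightly wider than the others of the same band. Their median width was 504 bp (quartiles at 381 and 669 bp, range 171 to 1998 bp), against 627 bp over all shared autosomal regions, and 25 of 692 (3.61%) were wider than 1000 bp, against 22.3%. The difference in median was not seen when regions were chosen by ranking the signal, which gave 626 bp. In band 2 the median was 384 bp for gaining regions and 325 bp for the others, in band 3 440 and 401 bp, in band 4 519 and 478 bp, and in band 5 634 and 554 bp. The losing regions had 341, 420, 528 and 612 bp in these bands. These widths are those of the merged regions, to which a wider peak in any library contributes.

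Peaks in the gaining regions covered more bases and had a larger deposited signal on G2. The median length covered was 247 and 310 bp on G128 and 436 and 484 bp on G2. Both G2 libraries covered more than both G128 libraries in 627 of the 692 (90.6%), against 43.5% of all shared autosomal regions. The reverse was found in 0 of 692, against 2.85% of all shared autosomal regions. With the limit set at 3 counts, 0 of 692 allows a share of up to 0.434%, which covers counting error only. The signal, the authors' value for the peak as a whole, had a median of 76.6 and 151 on G128 and 412 and 443 on G2. It was higher in both G2 libraries than in both G128 libraries in all 692 regions and in 75.2% of all shared autosomal regions. Length and signal come from the same libraries as the rank, and they are no independent measure of it.

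Most gaining regions, like most shared regions of bands 2 to 5, were single peaks with summits close together between libraries. Of the 597 in bands 2 to 5, 538 (90.1%, Wilson 95% interval 87.5 to 92.3%) had exactly 1 peak in each list, against 86.3% of all shared autosomal regions of these bands. The highest summits of the 4 libraries lay within 200 bp of each other in 532 (89.1%, 86.4 to 91.4%), against 89.6%. A summit that moved between groups by more than 100 bp and more than 2 times the distance between replicates was found in 12 of the 597 (2.01%), against 2.14%. In 8 (1.34%) both G128 libraries had several peaks where both G2 libraries had 1, against 1.44%. None had 1 peak on G128 and several on G2 in both libraries, against 0.194%.

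Gaining regions were spread over the autosomes, and few lay within 10 kb of another. That share was larger than for all shared autosomal regions, with a smaller difference within bands 2 to 5. They were found on all 19 autosomes, from 9 regions on chromosome 18 (1.33% of its shared regions, Wilson 95% interval 0.702 to 2.51%) to 69 on chromosome 11 (2.82%, 2.23 to 3.55%). The highest share was 3.48% on chromosome 12 (38 regions, 2.55 to 4.74%). The intervals of 16 autosomes included 2.53%. That of chromosome 12 lay above it, and those of chromosome 18 and of chromosome 3, with 23 regions (1.68%, 1.12 to 2.51%), lay below.

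Of the 1932 windows of 1 Mb that held a shared region, 520 held a gaining region, 122 held 2 or more and 11 held 4 or more. The losing regions occupied 481 windows, with 2 or more in 125 and 4 or more in 17. No window held more than 5 gaining regions, while 1 window held 16 losing regions. The 3 windows with 5 gaining regions began at 38 Mb on chromosome 6, at 62 Mb on chromosome 4 and at 120 Mb on chromosome 11. They held 25, 37 and 81 shared regions, so gaining regions made up 20%, 13.5% and 6.17% of them.

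On chromosome 6 the 5 gaining regions lay between 38031596 and 38826938. The largest margin there, 25.9 points, was at chr6:38173818-38174405, with summits of 25.6 and 34.0 times the background on G128 and 62.8 and 70.1 times on G2. On chromosome 4 the region chr4:62889872-62890567 had a margin of 24.3 points, with 50.3 and 46.8 times on G128 and 130 and 145 times on G2. The other regions of these windows had margins of 10.5 to 22.5 points. The median change in percentile of all shared regions was 0.831 points in the window on chromosome 6, 1.84 on chromosome 4 and −0.386 on chromosome 11.

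Within 10 kb, 28 gaining regions (4.05%, Wilson 95% interval 2.81 to 5.79%) had another gaining region, against 2.33% of all shared autosomal regions with a gaining region that close. Only 11 (1.59%, 0.890 to 2.82%) had a losing region within 10 kb, against 3.23%. A G2-only region, with peaks in both G2 lists and in neither G128 list, lay within 10 kb of 84 (12.1%, 9.91 to 14.8%), against 10.3%. Another shared region was that close to 54.5% of the gaining and 55.1% of all shared autosomal regions. For the losing regions these shares were 10.9% for another losing region, 8.10% for a G2-only region and 63.1% for another shared region. Shared regions next to a gaining region, within 10 kb and neither gaining nor losing themselves, had a median change of 0.483 points (n = 431), and 55.5% were above 0. Next to losing regions it was −2.36 points (n = 553), with 32.4% above 0. Over all adjacent shared regions it was −0.274 points (n = 19336), with 47.1% above 0. Unlike the other 2 sets, this last one keeps gaining and losing neighbours.

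The 28 regions formed 14 pairs, 12 of them with no shared region in between. The closest pair lay 178 bp apart on chromosome 4, at chr4:101028515-101029058 and chr4:101029237-101029670. The first had summits of 32.2 and 43.2 times the background on G128 and 68.2 and 67.2 times on G2. The second had 34.1 and 41.8 times on G128 and 60.0 and 73.8 times on G2. The pair with the largest smaller margin was on chromosome 6, at chr6:90651422-90651779 and chr6:90652925-90653862, with margins of 22.3 and 24.2 points. The second and twelfth regions of the 20 listed above were each part of a pair. The partner of the second was chr10:77760467-77761328, with 41.7 and 57.4 times on G128 and 101 and 89.1 times on G2. The partner of the twelfth was chr11:100151386-100152048, with 26.6 and 25.5 times on G128 and 44.6 and 46.0 times on G2. These pairs were singled out after their values had been seen.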

How the data were processed

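ATAC-seq peak lists of 4 libraries were used, 2 each of cells on G128 and G2, grouped and numbered by the sample titles. Per the submitters' processing notes, the build was mm9 and the tools Genrich 0.5, Bowtie2 2.2.5, HISAT2 2.1.0, SAMtools 1.7, deepTools and featureCounts 1.5.0-p1. Their roles, settings, read shifting and filters are not given in the sources used here. The authors called peaks per library and deposited, for each peak, −log10 p and q values and the offset of its summit. The deposited signal is the peak caller's value for the whole peak, and the deposited score, not used here, is a number capped at 1000 by the authors' caller. Coordinates are given from 1.

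The region's largest deposited −log10 p-value was ranked with average ties. Summit intervals and background means were recovered from the p-values by fitting a log-normal to the 100 lowest distinct values, and all summits lay within 0.00179 of a whole number. Merging, recovery and ranking were tested on simulated data. Python 3.11.15, numpy 2.4.6, scipy 1.17.1 and pandas 2.3.3 were used.

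The regions described are the 20 with the largest margin, the 5 with the highest mean percentile, those next to the threshold and the 1 Mb windows with the most regions. The regions, lists and alternatives were chosen with earlier results of these data known. Gene lists, markers and motifs were not used for lack of an mm9 annotation here. Alternatives concerned the margin, ranked value, merging, caller's threshold, peak numbers, width, chromosomes, pairing and each library.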

Additional observations from a re-analysis of the deposited data

How the results depend on the processing

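The log2 margin, the other form of the percentile, the restriction to summits within 200 bp and the 20 points for single pairs were chosen after seeing the data. Of 17 alternatives, 9 left the count of gaining regions (692) within 1.5 times, at 610 to 1026, and 9 left that of losing regions (691) so, at 528 to 726. A margin of 5 points gave 1806 gaining and 1932 losing regions, and one of 20 points 103 and 102. Peaks with p at least 10 times below the weakest of their list gave 449 gaining regions from 19657 ranked, and these covered only 233 of the 692. Ranking by signal gave 820, which covered 390. A log2 margin of 0.5 in scaled summits gave 123 gaining and 203 losing regions. Leaving out each library in turn, which asks for fewer libraries, gave 1438 to 2202 gaining and 1449 to 2223 losing regions. Those without G128 replicate 1 (2157) covered 626 of the 692, and those without G128 replicate 2 (2202), G2 replicate 1 (1438) and G2 replicate 2 (1594) covered 680, 686 and 691.

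With the replicate number as a block, that is with at least 10 points in each same-numbered pair, 1026 regions gained and 1089 lost. The differences between replicates 1 and 2 were uncorrelated between the groups across regions (r = 0.01 for percentiles). This cannot show whether same-numbered libraries were prepared together, and the titles give only a number. The median width of gaining regions was 626 bp when ranked by signal, level with the 627 bp of all shared autosomal regions, and 461 bp with 1 peak in each list. The median log2 difference was 0.81 without scaling. With 20 points in place of 10 for single pairs, 16.0% and 24.3% recurred, against 2.26% and 3.44% of all regions. These last shares were not weighted to the bands of the chosen regions. At 10 points that weighting raised them from 11.5% and 13.1% to 18.1% and 20.6%. Promoter distance, sequence and motif alternatives were left out for want of a reference on mm9 here.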
